A study of Homo sapiens with 6 samples.

Results

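The insulin-like growth factor (IGF) system of SKOV3, a human ovarian cancer cell line, is described here by 10 genes. They are the receptors IGF1R, IGF2R and INSR, the ligand IGF2, and the binding proteins IGFBP2, IGFBP3, IGFBP4, IGFBP5, IGFBP6 and IGFBP7. These genes were taken by symbol from that system with earlier results of these data known, and IGF1 and IGFBP1 are not among them. The table held 58825 Ensembl identifiers, among them a second one for IGF2 that was at 0 counts in every library and is not used here. All 10 genes had at least 1 count in some library, and 9 of them were among the 16208 genes that passed the filter on low counts. The exception was IGF2. The NC group (n = 3 libraries) received a control siRNA, and the si-EIF5A2 group (n = 3 libraries) an siRNA against EIF5A2, a translation factor gene; mRNA was sequenced 48 h after transfection. Both groups were the same cell line, grown in medium with serum, and the knockdown rested on 1 siRNA duplex. The labels do not say that the 3 libraries of a group came from separate cultures, so p-values measure only the spread between these libraries, which may be technical.

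IGF2 and IGF1 are secreted growth factors that bind IGF1R, a receptor tyrosine kinase, and a form of the insulin receptor INSR, and so drive growth and survival through PI3K/AKT/mTOR and RAS/ERK signaling. IGF2R has no kinase; it carries mannose 6-phosphate-tagged enzymes to lysosomes and takes up IGF2 for degradation. The binding proteins IGFBP1 to IGFBP6 hold IGFs with high affinity outside the cell and are opened by proteases such as the pappalysins, whereas IGFBP7 binds IGFs weakly. IGF signaling is known in ovarian cancer for its part in growth.

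Levels are given as CPM, counts relative to the TMM-scaled library size, and changes as log2 fold changes of si-EIF5A2 over NC with standard errors (SE). A gene was called when its change exceeded 1.5-fold and edgeR's quasi-likelihood fit gave a Benjamini-Hochberg adjusted p below 0.05. The libraries held 46900204 to 74142267 estimated counts. Low values piled up at multiples of about 3.73 counts, so the totals stand for 12600000 to 19900000 fragments. EIF5A2 itself had 27.8, 29.8 and 29.9 CPM in NC against 2.76, 4.04 and 4.27 CPM after knockdown, and its log2 fold change was -2.98 (SE 0.18, adjusted p = 1.6e-05). Of the epithelial markers listed, KRT8, KRT18 and ERBB2 were well detected, while EPCAM and KRT19 reached at most 3.85 CPM in any library. The summed level of the 6 epithelial markers was 1034 to 1145 CPM in NC against 697 to 887 CPM after knockdown, with KRT8 and CLDN4 called lower. The CLDN4 call rests on low values, 0.0766 to 1.18 CPM over the libraries. PTPRC and CD3E, which define leukocytes, were at 0 counts in every library; CD68 made up nearly all of the leukocyte marker level, which summed to 40.8 to 57.4 CPM in NC and 28.97 to 55.5 CPM after knockdown. The 6 endothelial markers summed to 11.4 to 14.6 CPM in NC against 6.85 to 12.2 CPM after knockdown, with 0 called. The 6 fibroblast markers summed to 0.872 to 1.41 and 0.861 to 3.23 CPM. PDGFRB was called lower on few counts, with 19, 52 and 38 in NC against 0, 0 and 4 after knockdown. The part of these shifts in the results was not tested.

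Upstream sequence is shown for the called genes whose 250 bases before the RefSeq start lie wholly outside the annotated gene. These were IGF2R, which had the largest rise, the signaling receptor IGF1R, and IGFBP4, which had the largest fall. The windows of IGFBP2 and IGFBP6, also called, reach into the annotated gene and are not shown. Capitals mark matches to any of 6 motifs, searched on both strands: the TATA box TATAAA, the E-box CACGTG, the GC box GGGCGG, the CCAAT word, the KLF word CCACACCC and the E2F forms TTTCCCGC, TTTGGCGC, TTTCGCGC and TTTGCCGC. The motifs were chosen with these sequences in view, and matches may overlap. The sequences are from RefSeq (GRCh38.p14), 5′ to 3′, each ending just before the start.

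IGF2R, chr6:159968832-159969081, plus strand: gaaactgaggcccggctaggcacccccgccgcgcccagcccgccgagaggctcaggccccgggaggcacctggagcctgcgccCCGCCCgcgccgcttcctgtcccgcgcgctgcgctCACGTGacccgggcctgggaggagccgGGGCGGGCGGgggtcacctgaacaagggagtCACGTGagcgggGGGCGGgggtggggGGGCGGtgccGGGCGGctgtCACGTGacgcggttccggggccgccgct

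IGF1R, chr15:98648289-98648538, plus strand: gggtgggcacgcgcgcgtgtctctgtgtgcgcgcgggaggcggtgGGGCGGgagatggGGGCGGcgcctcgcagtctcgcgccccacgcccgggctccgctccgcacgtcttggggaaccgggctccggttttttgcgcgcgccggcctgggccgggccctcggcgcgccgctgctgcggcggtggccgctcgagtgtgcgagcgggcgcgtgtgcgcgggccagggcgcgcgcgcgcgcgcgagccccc

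IGFBP4, chr17:40443200-40443449, plus strand: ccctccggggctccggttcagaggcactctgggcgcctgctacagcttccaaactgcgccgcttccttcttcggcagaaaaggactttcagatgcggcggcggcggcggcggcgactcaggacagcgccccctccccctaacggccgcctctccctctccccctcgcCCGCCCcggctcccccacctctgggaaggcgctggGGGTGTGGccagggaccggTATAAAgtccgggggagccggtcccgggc

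The IGF2R window held 3 E-boxes, the nearest ending 23 bases before the start, and 6 GC boxes, some of which overlap. An E-box was present in 6.3% of 35116 RefSeq windows of the same length, and 3 or more in 28 of them (0.0797%). Those windows were not matched for GC content, and the motif was chosen with the IGF2R sequence in view, so these shares are no test of enrichment. The IGF1R window had the higher GC content (81.2%, against 79.2% for IGF2R), with 2 GC boxes and no E-box. The IGFBP4 window was the one with a TATA box, which ended 24 bases before the start, and with a KLF match on the opposite strand, which ended 41 bases before it. TATAAA was present in 10.7%, the KLF word in 3.0% and a GC box in 42.6% of all windows. No CCAAT word (32.0% of all windows) and no E2F form (2.8%) was found in the windows of the 8 genes of the set that matched the RefSeq table, and outside IGF2R none of these 8 held an E-box. These are matches of letters in a window, not shown binding sites. The KLF word also begins the site in the KLF4 promoter that responded to E2F1 in the study's luciferase assay. The E2F forms searched here do not cover that site.

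Of the 9 genes tested, 5 were called after EIF5A2 knockdown: IGF1R and IGF2R rose, and IGFBP2, IGFBP4 and IGFBP6 fell. Among all genes tested 24.6% were called (11.1% higher and 13.6% lower), beside 5 of 9 genes (55.6%) of the set. The set was chosen with earlier results of these data known, so this comparison is a description and not a test. The other 4, INSR, IGFBP3, IGFBP5 and IGFBP7, were not called. The median log2 fold change of the 9 genes was 0.37, which is the value of IGFBP7, a gene not called, against -0.010 over all genes tested. It gives no common direction for the set. The CPM ranges of the groups did not overlap in 6 of the 9 genes, the 5 called and IGFBP3, compared with 51.2% of all genes tested. These 6 genes also had an adjusted p under 0.05, which 36.9% of all genes had. In bulk RNA, fewer cells that express a gene and less RNA per cell cannot be told apart.

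**Figure D1:**
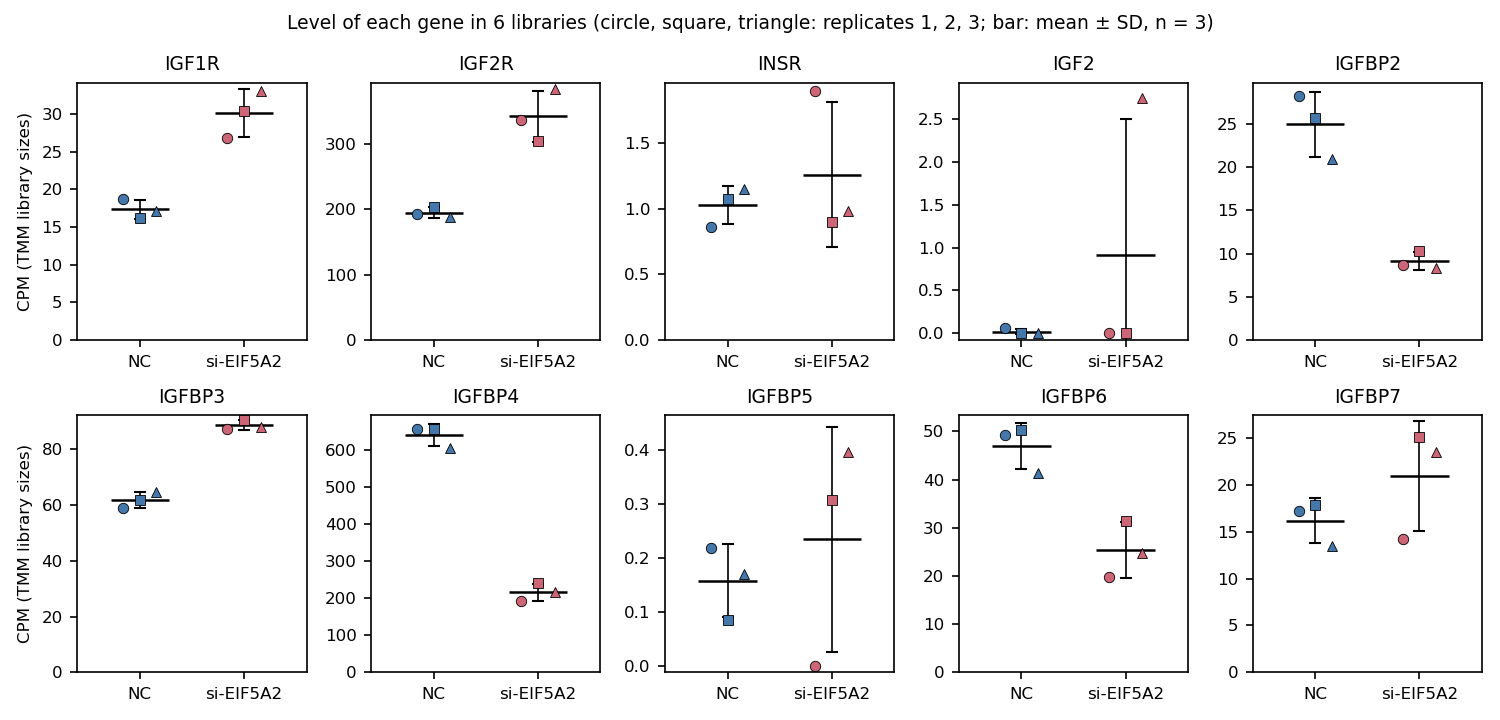
CPM (TMM library sizes, linear axis for each gene) of the 10 genes in the 3 NC libraries (blue) and the 3 si-EIF5A2 libraries (red); points are libraries, horizontal lines means and error bars SD (n = 3). The groups are apart for IGF1R, IGF2R, IGFBP2, IGFBP3, IGFBP4 and IGFBP6 and overlap for INSR, IGF2, IGFBP5 and IGFBP7, and the IGF2 signal comes from si-EIF5A2 replicate 3.

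IGF2R, on chromosome 6 from 159969099 to 160113507 (plus strand, GRCh38; ENSG00000197081), was the most abundant receptor. It had 193, 204 and 188 CPM in NC replicates 1 to 3 and 337, 305 and 383 CPM in si-EIF5A2 replicates 1 to 3. Every si-EIF5A2 library was above every NC library, and the spread was wider in the knockdown group. IGF2R rose 1.76-fold (log2 fold change 0.81, SE 0.095, adjusted p = 3.89e-04). Leaving out single libraries gave values from 0.72 to 0.89.

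IGF1R, on chromosome 15 from 98648539 to 98964530 (plus strand; ENSG00000140443), is the receptor that transmits IGF signals. Its level was 18.7, 16.1 and 17.2 CPM in NC against 26.8, 30.4 and 33.1 CPM after knockdown. The groups did not overlap. IGF1R rose 1.74-fold (log2 fold change 0.80, SE 0.11, adjusted p = 0.00111), and the value stayed between 0.72 and 0.87 with a library left out. The change of IGF1R was thus close in size to that of IGF2R: the ratio of their levels per kb of exon was 8.83 ± 0.943 in NC and 8.91 ± 0.998 in si-EIF5A2 libraries (SD, n = 3 each), with overlapping ranges.

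INSR, on chromosome 19 from 7112255 to 7294034 (minus strand; ENSG00000171105), encodes the insulin receptor, which can pair with IGF1R in hybrid receptors. It was near the limit of detection, with 0.863, 1.07 and 1.15 CPM in NC against 1.90, 0.900 and 0.980 CPM after knockdown, which stand for 13 to 26 fragments per library. One knockdown library, replicate 1, was above all others, and the remaining libraries of both groups overlapped. The log2 fold change was 0.29 (SE 0.39, adjusted p = 0.602), and it was -0.13 without si-EIF5A2 replicate 1, so no direction is given. The ratio of IGF1R to INSR per kb of exon was 16.2, 11.3 and 11.2 in NC and 10.6, 25.3 and 25.3 in si-EIF5A2 libraries. These ranges overlap, and each ratio rests on 13 to 26 INSR fragments.

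IGF2, on chromosome 11 from 2129112 to 2149603 (minus strand; ENSG00000167244), the ligand of the set, was listed at 0 counts in 4 libraries. NC replicate 1 had 4 counts, about 1 fragment, and si-EIF5A2 replicate 3 had 132 counts, about 35 fragments or 2.75 CPM. A count of 0 allows up to 3 fragments, which is 0.153 to 0.238 CPM depending on the library and covers counting error only. IGF2 did not pass the filter and was not tested. H19, the noncoding RNA gene beside IGF2 in the imprinted cluster, was likewise highest in si-EIF5A2 replicate 3, with 65 counts there, 4 counts in NC replicate 2 and 0 in the others. Of the 6 fibroblast markers, COL3A1 (34 counts), DCN (11 counts) and LUM (11 counts) were also detected in si-EIF5A2 replicate 3. These were at 0 in the 5 other libraries. The rest of the list did not follow this pattern. COL1A2 had 4 counts in si-EIF5A2 replicate 1 and 0 elsewhere. PDGFRB had 4 counts in si-EIF5A2 replicate 3 against 19, 52 and 38 in NC. COL1A1 had 84, 41 and 3 counts in NC against 40, 59 and 95 after knockdown. The part of these genes in the IGF2 signal was not tested. Genes whose exons overlap IGF2 on the same strand, INS-IGF2 among them, were at 0 in every library, and so were the ligand genes IGF1 and INS.

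IGFBP4, on chromosome 17 from 40443461 to 40457731 (plus strand; ENSG00000141753), a secreted protein that mostly restrains IGF action, was the most abundant gene of the set. It had 658, 656 and 605 CPM in NC against 192, 240 and 216 CPM after knockdown. The groups were far apart, with the lowest NC library well above the highest knockdown library. IGFBP4 fell 2.97-fold (log2 fold change -1.57, SE 0.096, adjusted p = 1.7e-05), and the value stayed between -1.65 and -1.50 with a library left out.

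IGFBP2, on chromosome 2 from 216632828 to 216664436 (plus strand; ENSG00000115457), binds IGF2 with preference and also has an integrin-binding motif. Its level was 28.2, 25.7 and 20.9 CPM in NC against 8.65, 10.3 and 8.36 CPM after knockdown. NC replicate 3 was the lowest of its group and still above all knockdown libraries. IGFBP2 fell 2.74-fold (log2 fold change -1.46, SE 0.15, adjusted p = 2.14e-04), and the value lay between -1.58 and -1.36 with a library left out. IGFBP5, which lies 7668 bases from IGFBP2 and is transcribed towards it, was at 0 to 5 fragments per library, with a log2 fold change of 0.56 (SE 1.15, adjusted p = 0.749). Its levels, 0.0847 to 0.219 CPM in NC against 0 to 0.396 CPM after knockdown, give no direction.

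IGFBP6, on chromosome 12 from 53097436 to 53102345 (plus strand; ENSG00000167779), the binding protein with the strongest preference for IGF2, had 49.2, 50.2 and 41.4 CPM in NC against 19.8, 31.5 and 24.9 CPM after knockdown. The groups did not overlap, although the knockdown libraries spread more than the NC libraries relative to their mean. IGFBP6 fell 1.85-fold (log2 fold change -0.89, SE 0.17, adjusted p = 0.00508), and the value lay between -1.07 and -0.74 with a library left out.

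IGFBP3, on chromosome 7 from 45912245 to 45921874 (minus strand; ENSG00000146674), the main IGF carrier in blood, had 58.8, 61.9 and 64.7 CPM in NC against 87.0, 90.5 and 87.9 CPM after knockdown. The groups did not overlap and each was tight. The adjusted p was 0.00111, with a log2 fold change of 0.52 (SE 0.074). This is 1.43-fold, so IGFBP3 passed on p and missed the limit on the fold change, and it lay between 0.48 and 0.54 with a library left out. IGFBP1 lies 18576 bases from IGFBP3 and the genes are transcribed towards each other. IGFBP1, which is outside the set and was tested with the pathway lists, had 18.8, 17.5 and 20.6 CPM in NC against 4.58, 4.31 and 4.44 CPM after knockdown (log2 fold change -2.09, SE 0.12, adjusted p = 1.52e-05).

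IGFBP7, on chromosome 4 from 57030773 to 57110385 (minus strand; ENSG00000163453), is a secreted matrix protein with weak IGF binding. It had 17.2, 17.9 and 13.5 CPM in NC against 14.2, 25.0 and 23.4 CPM after knockdown. Knockdown replicate 1 lay within the NC range, and the other knockdown libraries were above it. The log2 fold change was 0.37 (SE 0.22, adjusted p = 0.248). Without si-EIF5A2 replicate 1 it was 0.57 with an adjusted p of 0.0288, still under the fold limit. A stretch of 270 bases, 14.0% of the IGFBP7 exons, overlaps POLR2B on the opposite strand, and the sources used here do not say whether strand was used in counting, so reads in this stretch cannot be assigned with certainty.

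**Figure D2:**
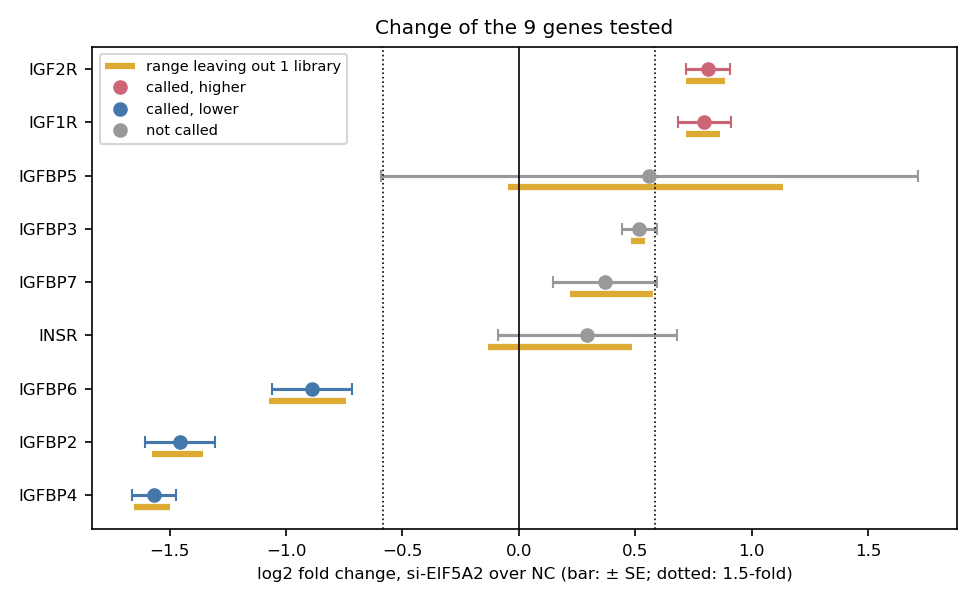
Log2 fold change of si-EIF5A2 over NC (linear axis) for the 9 genes tested, with SE as error bars, the range over fits that leave out 1 library below each point (yellow), and dotted lines at a 1.5-fold change. IGF1R and IGF2R lie to the right of the limits and IGFBP2, IGFBP4 and IGFBP6 to the left with every library left out in turn; the bars of INSR and IGFBP5 cross 0.

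Levels of different genes were compared per kb of the union of their exons. In NC libraries IGFBP4 was first, at 291 ± 13.6 CPM per kb, followed by IGFBP6 (34.9 ± 3.56), IGFBP3 (13.5 ± 0.645), IGF2R (10.9 ± 0.467), IGFBP7 (8.38 ± 1.23), IGFBP2 (5.23 ± 0.784) and IGF1R (1.24 ± 0.0922 CPM per kb; SD, n = 3 for each). No neighbours in this order overlapped between libraries. INSR, IGFBP5 and IGF2 were under 0.110 CPM per kb in every NC library. In si-EIF5A2 libraries IGFBP4 was again first, at 98.1 ± 10.9 CPM per kb. IGFBP3 (19.3 ± 0.394), IGF2R (19.2 ± 2.20) and IGFBP6 (18.8 ± 4.35 CPM per kb) followed with overlapping ranges, and so did IGF1R (2.16 ± 0.224) and IGFBP2 (1.91 ± 0.218 CPM per kb) further down. IGFBP7 (10.8 ± 3.02 CPM per kb) lay between these groups of genes. The place of IGFBP2 depends on the length used. With the length of the principal transcript, which is 1439 bases for IGFBP2 against 4767 bases of union exons, IGFBP2 had 17.3 ± 2.60 CPM per kb in NC, above IGFBP7 (11.3 ± 1.66) and overlapping with IGF2R (13.9 ± 0.593 CPM per kb). After knockdown it had 6.32 ± 0.723 CPM per kb by this length, above IGF1R (2.46 ± 0.256 CPM per kb) and without overlap.

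The summed level of the 6 binding proteins of the set leaves out IGFBP1, which was called lower. This summed level was 363, 364 and 332 CPM per kb in NC and 130, 167 and 150 CPM per kb in si-EIF5A2 libraries. IGFBP4 took 82.3%, 82.0% and 83.0% of this sum in NC and 67.0%, 65.1% and 65.5% in si-EIF5A2 libraries. The share of IGFBP3 was 3.84% ± 0.379 in NC and 13.1% ± 1.42 in si-EIF5A2 libraries, and that of IGFBP7 was 2.37% ± 0.232 and 7.17% ± 1.32 (SD, n = 3 each). The groups did not overlap in either. IGFBP6 had 9.86% ± 0.511 in NC and 12.5% ± 1.35 in si-EIF5A2 libraries, again without overlap, although its own level fell. With the longest or the principal transcript as length, the ranges of the IGFBP6 share overlapped. IGFBP2 had 1.32% to 1.63% in NC against 1.17% to 1.39% after knockdown, which overlap, whereas with the principal transcript it had 3.996% to 4.92% against 3.22% to 3.79%, without overlap, as with the longest transcript. Shares add up to the whole, so the fall of IGFBP4 alone raises the share of every other gene, and no test was run on them.

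**Figure D3:**
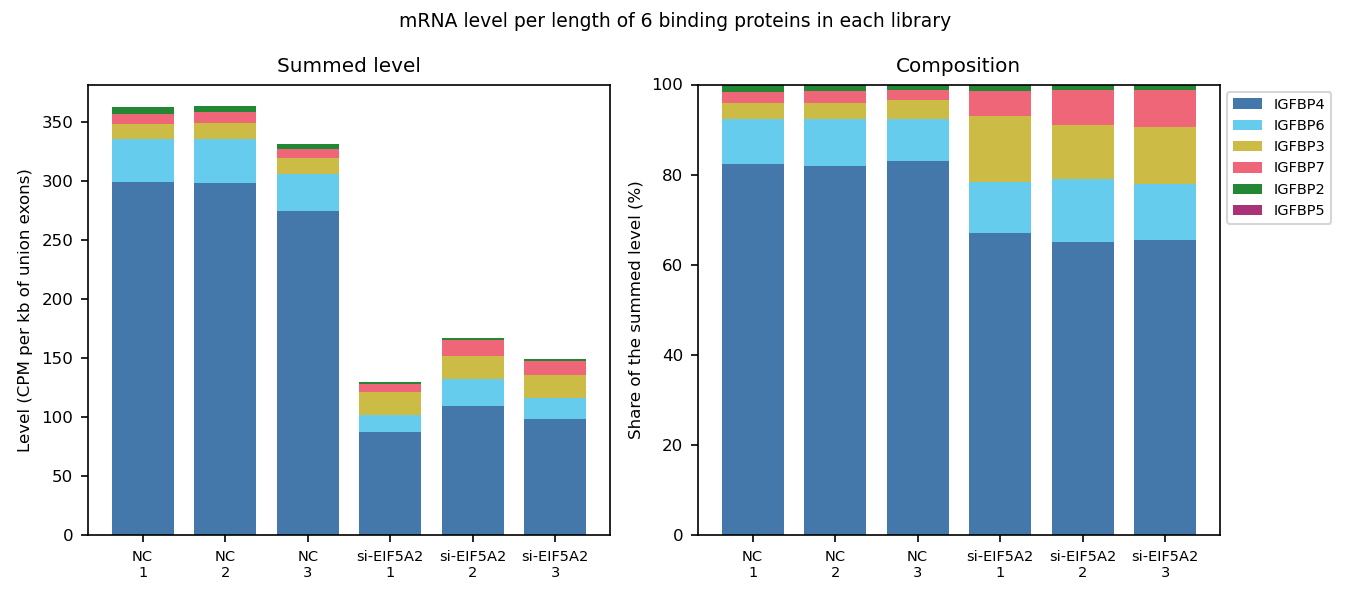
Level of the 6 binding protein genes of the set in each library, stacked, in CPM per kb of union exons (left) and as a share of their sum in percent (right). IGFBP1 is not included. The sum lies between 332 and 364 in NC and between 130 and 167 CPM per kb in si-EIF5A2 libraries, and the IGFBP4 share is at least 82.0% in NC and at most 67.0% in si-EIF5A2 libraries.

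By likeness of pattern, the genes closest to IGF2R among 8843 other genes with at least 10 CPM were GNAQ, ULBP2 and CEP89. Their log2 CPM over the 6 libraries, centred on each gene's own mean, differed from that of IGF2R by a root mean square of 0.054 to 0.060. The genes closest to IGFBP4 were SHMT2, TRIM69 and NMNAT2, with differences of 0.041 to 0.065. The likeness covers mostly the step between the groups, and with 6 libraries in 2 groups it is a description only.

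The genes around the set were read from 9 lists of 115 further genes of the insulin and IGF pathway, of which 101 were tested. Of these, 32 (31.7%) were called, 10 higher and 22 lower, against the 24.6% of all genes tested. Their median log2 fold change was -0.12. The lists were also chosen with earlier results of these data known, so these shares are a description only.

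The proteases that cleave binding proteins and the inhibitors of those proteases changed in both directions. The test covered 11 of 13 genes (median log2 fold change -0.23): STC1, PAPPA and TIMP1 rose, ADAM12 and STC2 fell, and the other 6 were not called. The share called was 45.5%, beside 24.6% of all genes tested. PAPPA encodes pappalysin-1, which cleaves IGFBP4 and IGFBP5 and releases bound IGF. It had 5.62, 5.73 and 3.38 CPM in NC against 8.66, 10.98 and 10.2 CPM after knockdown (log2 fold change 1.01, SE 0.22, adjusted p = 0.00877). PAPPA is under the abundance limit of 10 CPM used for naming and was named after its values were seen, as was its paralog PAPPA2, with a log2 fold change of -0.23 (adjusted p = 0.140). STC1 and STC2 encode stanniocalcins, which inhibit pappalysins. STC1 was at 39.2, 42.4 and 45.9 CPM in NC against 307, 273 and 291 CPM after knockdown, so it rose 6.83-fold (log2 fold change 2.77, SE 0.090, adjusted p = 4.44e-06). STC2 was at 202, 205 and 203 CPM in NC against 132, 128 and 132 CPM after knockdown, and fell by 0.64 on the log2 scale (adjusted p = 1.66e-04). The inhibitors of the same proteases thus moved in opposite directions. ADAM12, a metalloprotease that cleaves IGFBP3 and IGFBP5, fell by 1.52 on the log2 scale, and TIMP1, an inhibitor of metalloproteases, had 0.59, just past the limit of 1.5-fold. TIMP1 kept its call in 6 of 15 alternatives: it was under the limit without NC replicates 2 or 3 or si-EIF5A2 replicates 2 or 3 (0.51 to 0.55), with upper-quartile factors, without or with a stricter filter on low counts, with the replicate block and with counts divided by the step (0.55 to 0.58).

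**Figure D4:**
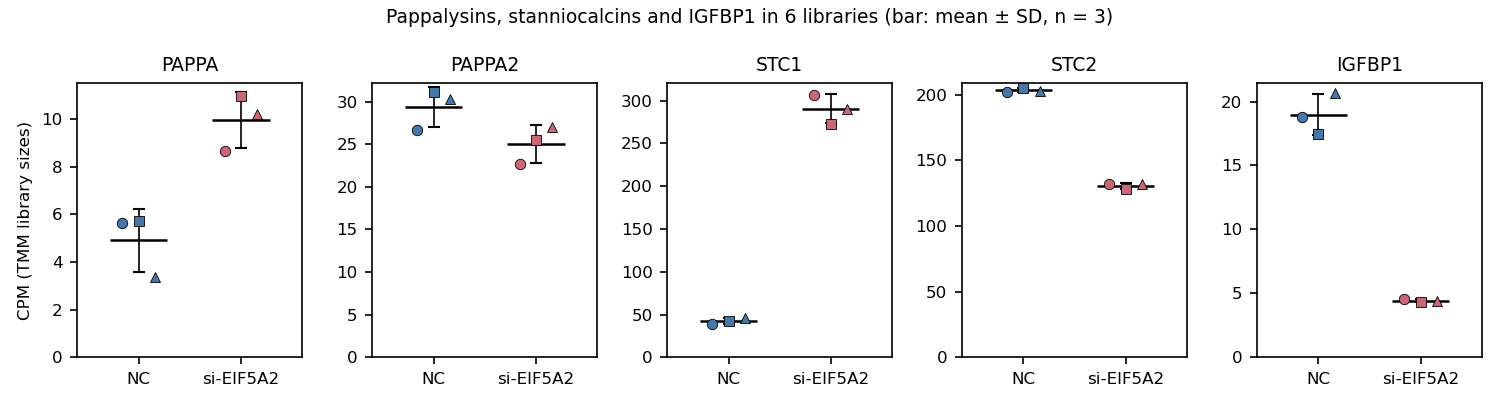
CPM (linear axes from 0) of PAPPA, PAPPA2, STC1, STC2 and IGFBP1 in the 3 NC (blue) and 3 si-EIF5A2 (red) libraries; points are libraries, lines means and bars SD (n = 3). PAPPA and STC1 are higher and STC2 and IGFBP1 lower in every si-EIF5A2 library than in every NC library, and STC1 lies between 39.2 and 45.9 CPM in NC and between 273 and 307 CPM after knockdown.

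All 3 genes of the IGF2 mRNA-binding proteins, which bind IGF2 and many other mRNAs and control their stability and translation, fell. IGF2BP2 had 423, 428 and 429 CPM in NC against 146, 127 and 133 CPM after knockdown (log2 fold change -1.65, SE 0.076, adjusted p = 6.52e-06), and IGF2BP3 had 48.6, 44.2 and 57.4 CPM in NC against 15.96, 17.1 and 16.8 CPM after knockdown (log2 fold change -1.59). IGF2BP1, at 0.575 to 1.74 CPM and named after its values were seen, had -1.15 with an adjusted p of 0.0473, and lost its call without any of 5 libraries in turn (adjusted p up to 0.157), with the replicate block (adjusted p = 0.117) and with no filter on low counts (adjusted p = 0.0646). Of the other ligand, receptor and binding protein genes 1 of 9, IGFBP1, was tested. Among the proprotein convertases, which cut the precursors of the receptors and of IGF2, 3 of 5 genes were tested, and PCSK5, at 3.96 ± 0.215 CPM in NC and named after its values were seen, was the gene that fell (log2 fold change -1.29).

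Among receptor substrates and adaptors 16 of 18 genes were tested, 3 rose and 0 fell, median log2 fold change 0.42. The share called was 18.8%, below the 24.6% of all genes tested. SH2B1 (1.12), an adaptor that aids insulin receptor signaling, SOCS3 (0.86), which feeds back on the receptors, and PTPN11 (0.69), the phosphatase SHP2, rose on the log2 scale as given. IRS1 and IRS2, the main docking proteins of both receptors, had log2 fold changes of -0.50 (adjusted p = 0.00927) and 0.45 (adjusted p = 0.0169), below the fold limit and of opposite sign; both were named after their values were seen. In the list of PI3K, AKT and FOXO genes all 21 were tested, with a median of 0.12, 1 higher and 5 lower (28.6% called). The catalytic subunit PIK3CD rose by 0.62 and PIK3CB fell by 0.70 on the log2 scale. PIK3CD was just under the fold limit without NC replicate 3 and with no filter on low counts (0.58 in both). All 21 TSC and mTORC1 genes were tested, with a median of -0.23, and 7 fell and 1 rose (38.1% called). MTOR, the kinase shared by both mTOR complexes, fell by 1.32, EIF4EBP1, a translation repressor controlled by mTORC1, by 1.24, and MLST8, a subunit of both complexes, by 0.85. RICTOR, the subunit particular to mTORC2, had 0.86 and was the gene that rose.

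**Figure D5:**
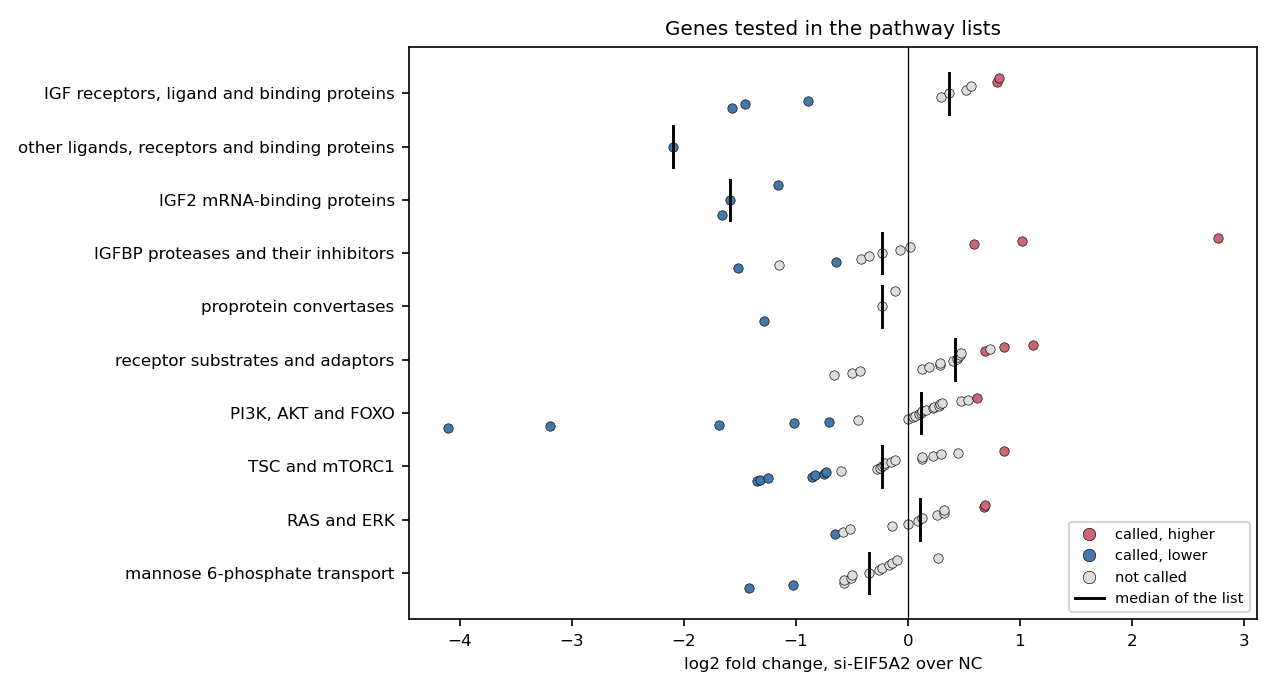
Log2 fold change of si-EIF5A2 over NC (linear axis) for every tested gene of the set (top row) and of the 9 pathway lists; each point is a gene, red called higher, blue called lower, grey not called, and black bars are list medians. The receptor substrates and adaptors have 3 genes called higher and 0 lower (18.8% of those tested). The IGF2 mRNA-binding proteins have 3 lower and 0 higher. Among all genes tested 24.6% were called.

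In the RAS and ERK list all 12 genes were tested, with a median of 0.11. The share called was 25%, beside 24.6% of all genes tested. RPS6KA3 (0.69) and BRAF (0.68) rose and MAPK3 fell by 0.65 on the log2 scale, and all 3 were under the fold limit without si-EIF5A2 replicate 1 (0.52, 0.57 and -0.57). The 13 genes of mannose 6-phosphate transport, the route that IGF2R serves, had a median of -0.34, with 2 lower and 0 higher. Here 15.4% were called, below the 24.6% of all genes tested. SORT1, the sorting receptor sortilin, fell by 1.42, from 51.9 ± 2.43 to 19.4 ± 1.21 CPM (SD, n = 3 each), and GGA3, an adaptor that loads mannose 6-phosphate receptors into vesicles, fell by 1.02 on the log2 scale. M6PR, the smaller mannose 6-phosphate receptor and named after its values were seen, had 130 ± 7.39 CPM in NC against 102 ± 29.5 CPM after knockdown (log2 fold change -0.34, adjusted p = 0.261), so IGF2R was the receptor of this route that rose.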

How the data were processed

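The authors sequenced paired-end mRNA libraries of SKOV3 cells, ran StringTie and ballgown, and deposited a table of estimated counts, whole numbers without normalization, by gene and library. The submitters' processing notes name Bowtie 0.12.2 and the builds mm8 and mm9, which are mouse builds; the aligner and build used for these human libraries are otherwise not given in the sources used here. Low values lie at rounded-up multiples of about 3.73 counts (3.71 to 3.74 per library). Counts were used as deposited. StringTie shares fragments between overlapping transcripts, so counts of overlapping genes are less certain.

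Symbols came from the reference tables (58817 of 58825 identifiers), and positions and exon lengths from GENCODE release 29 (GRCh38). All 149 list genes were matched. The fit used edgeR 4.0.16 in R 4.3.3 on all 6 libraries with condition as the only term: filterByExpr, TMM, robust dispersions, quasi-likelihood tests and Benjamini-Hochberg adjustment over 16208 genes. SEs were obtained from the log2 fold change and its F statistic (|log2 fold change|/√F). Principal transcripts carry GENCODE's APPRIS principal tag. For 3 against 3 libraries an exact permutation test cannot go below 0.1, so none was run. The steps were tested on simulated data. Alternatives were DESeq2 1.42.0, other scalings, filters, thresholds and lengths, summed identifiers, counts divided by the step, the replicate number as a block, and each library left out.

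Named from each list were called genes averaging 10 CPM or more over the 6 libraries, at most the 3 largest rises and falls, any other ligand, receptor or binding protein, and the 3 genes nearest in pattern to the called genes with the largest rise and fall. The members and lists were chosen with earlier results of these data known. Protein sequences were not used here.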

Additional observations from a re-analysis of the deposited data

How the results depend on the processing

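The same 5 genes, IGF1R, IGF2R, IGFBP2, IGFBP4 and IGFBP6, were called with DESeq2, with RLE or upper-quartile factors, with library size only, with no filter or at least 10 counts in every library, with summed identifiers, with counts divided by their step, and without each library in turn. Of 133 recomputed changes of the 9 genes tested, 131 kept their direction and side of the threshold. The exceptions were INSR without si-EIF5A2 replicate 1 (-0.13, in a leave-one-out range up to 0.49) and IGFBP5 without si-EIF5A2 replicate 3 (-0.045, range up to 1.14), neither called. IGFBP5 was not tested with at least 10 counts in every library or with counts divided by the step. The cause was not tested. Same-numbered libraries of the groups did not deviate together (r = -0.0244, 0.00522 and -0.00269 for replicates 1 to 3), and with the replicate block 5 of the set and 3731 of all genes were called, so it changed no call of the set; of the pathway genes 29 were called with the block, against 32 without it. The threshold mattered most. With an unadjusted p under 0.05 and a fold change over 2, 2 of the set, IGFBP2 and IGFBP4, were called. IGF1R, IGF2R and IGFBP6 were not. By this rule 2370 of all genes (14.6%) and 19 pathway genes were called. With no fold limit, 6 of the set (IGFBP3 added), 5974 of all genes (36.9%) and 53 pathway genes were called. The study's methods give a fold limit of 2 with a p value under 0.05. Its expression map uses a limit of 1.5 with an adjusted p under 0.05. The IGFBP4 share was 77.9% in NC and 56.7% in si-EIF5A2 libraries with the longest transcript as length, and 75.2% and 54.6% with the principal transcript. The IGF1R to INSR ratio was 6.64 and 10.5 with the principal transcript, against 12.9 and 20.4 with union exons. INSR had 13 to 26 and IGFBP5 0 to 5 fragments per library, and IGF2 was above 1 fragment in a single library, so no direction is given for these genes.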

Other observations

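PIK3R2, a regulatory subunit gene of PI3K, had 5220 and 5823 counts in NC replicates 1 and 2 and 15 counts in NC replicate 3, and 4125 and 4137 counts in si-EIF5A2 replicates 1 and 2 and 61 counts in si-EIF5A2 replicate 3. Its log2 fold change was 0.064 with an SE of 1.92. GRB2, an adaptor of the receptors, had 53.6 CPM in NC replicate 1 and 153 to 212 CPM in the 5 other libraries. These genes were chosen after their values were seen, and the cause was not tested.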
